A study of Mus musculus with 13 samples.

Results

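The cholesterol synthesis and lipid handling genes were described in RNA of enriched Sertoli cells, the somatic cells that support germ cells in the seminiferous tubules. The set was given by gene symbol and held 39 of the 54281 features of the count table: 18 genes of sterol synthesis, 5 of sterol sensing, 5 of lipoprotein uptake and cholesterol export, 3 of lipid storage and 8 of fatty acid synthesis, elongation and desaturation. All 39 symbols were found, and 38 passed the filter on low counts and entered the tests, among 14421 named genes. The remaining gene, Scd1, had between 0 and 13 counts per sample.

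All animals were C57Bl/6J wild-type males of 3 to 5 months. In the MSUS group (n = 7; separation from the mother at unpredictable times, with stress of the mother), pups were taken from the dam 3 h per day from postnatal day 1 to 14, while dams were made to swim in cold water or were restrained in a tube. Controls (n = 6) were raised without this procedure. Testes were digested, and diploid cells with high forward scatter and high MitoTracker signal were sorted without a transgene or surface marker, so that each library is an enriched preparation of 1 animal and not a pure cell type. Total estimated counts ranged from 12701664 to 18649819 per sample and did not differ between groups beyond their spread (exact permutation test, two-sided p = 0.274). Litter and cage were not modelled here, so p-values measure the spread between these animals.

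Cholesterol is built from acetyl-CoA through the mevalonate pathway to squalene, which is closed into the sterol ring and trimmed to cholesterol. When sterol is scarce, SCAP escorts the SREBP transcription factors, encoded by Srebf1 and Srebf2, away from the INSIG proteins so that they can be cut and switch on synthesis and uptake genes. Sertoli cells engulf dying germ cells and residual bodies and are known for their lipid droplets and for making long polyunsaturated fatty acids.

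Promoters are shown because the genes of this pathway are known to share control by SREBP and by the factor NF-Y. RefSeq windows on GRCm38.p6, from 250 bases before to 50 bases after a gene's start, were available for 32 of the 39 genes, 15 of them of sterol synthesis. They were searched on both strands for TCACNCCAC, a form of the sterol regulatory element, and for CCAAT, the core of the NF-Y site, which do not overlap each other here. The sterol element was present in 1.24% of all 32851 windows and in 1.44% of all genes with a window. It was found in 1 of the 32 genes (3.12%), Hmgcs1, where it began 137 bases before the start. CCAAT was present in 37.4% of all windows and in 41.1% of all genes with a window, and it was found in 23 of the 32 genes (71.9%) and in 14 of the 15 synthesis genes. The windows below are Hmgcs1, chosen as the holder of the sterol element (chr13:119690101-119690400, plus strand), Cyp51 (chr5:4104648-4104947, minus strand), Msmo1 (chr8:64733529-64733828, minus strand) and Ebp (chrX:8193463-8193762, minus strand), which varied together between mice, and Elovl5 (chr9:77917115-77917414, plus strand), which had the smallest p between groups. The last 4 were picked after their values were seen. Capitals mark the matches, where ATTGG is CCAAT read on the other strand.
Hmgcs1: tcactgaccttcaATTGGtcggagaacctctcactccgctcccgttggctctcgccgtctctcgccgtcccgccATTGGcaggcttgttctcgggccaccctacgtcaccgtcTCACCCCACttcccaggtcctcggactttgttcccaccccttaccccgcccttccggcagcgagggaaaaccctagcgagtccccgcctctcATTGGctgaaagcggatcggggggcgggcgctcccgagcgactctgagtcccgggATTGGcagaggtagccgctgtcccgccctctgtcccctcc
Cyp51: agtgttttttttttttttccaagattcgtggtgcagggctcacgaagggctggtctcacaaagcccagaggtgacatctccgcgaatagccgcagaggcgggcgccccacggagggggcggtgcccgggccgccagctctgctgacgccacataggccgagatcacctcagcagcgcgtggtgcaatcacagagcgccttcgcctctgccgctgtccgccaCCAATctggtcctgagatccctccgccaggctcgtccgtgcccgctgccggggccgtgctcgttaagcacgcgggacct
Msmo1: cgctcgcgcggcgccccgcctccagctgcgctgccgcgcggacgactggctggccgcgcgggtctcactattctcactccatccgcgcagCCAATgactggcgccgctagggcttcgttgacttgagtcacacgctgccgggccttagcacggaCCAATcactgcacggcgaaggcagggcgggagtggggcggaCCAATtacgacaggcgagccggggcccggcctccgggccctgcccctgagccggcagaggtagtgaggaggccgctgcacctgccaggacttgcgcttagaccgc
Ebp: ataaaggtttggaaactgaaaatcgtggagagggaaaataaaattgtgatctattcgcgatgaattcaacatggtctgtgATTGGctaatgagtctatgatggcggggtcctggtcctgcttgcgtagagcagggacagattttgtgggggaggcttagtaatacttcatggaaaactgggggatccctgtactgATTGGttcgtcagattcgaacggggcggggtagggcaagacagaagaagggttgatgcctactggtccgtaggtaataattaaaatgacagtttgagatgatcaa
Elovl5: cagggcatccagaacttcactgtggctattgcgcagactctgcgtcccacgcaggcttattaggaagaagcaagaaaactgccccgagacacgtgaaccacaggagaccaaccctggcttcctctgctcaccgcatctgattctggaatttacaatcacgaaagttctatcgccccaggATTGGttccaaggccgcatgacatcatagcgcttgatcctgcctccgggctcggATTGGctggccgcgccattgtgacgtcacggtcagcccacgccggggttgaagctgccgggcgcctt
Hmgcs1 held 4 CCAAT cores beside the sterol element, Msmo1 held 3, Ebp and Elovl5 held 2 each, and Cyp51 held 1. A match describes the letters of the window and does not show that a factor binds there.

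The identity of the preparation was checked against markers of 9 cell types. All 8 Sertoli markers were among the tested genes, with a mean list level of 8.84 log2 CPM (read counts scaled to a common library size, after TMM normalization and with a prior count of 2) in controls and 8.80 in MSUS samples. The macrophage markers were close to absent: all 5 fell below the filter on low counts, Lyz2 had 0 counts in all 13 samples and C1qa had 1 count in all. Germ cell RNA was present. The 4 elongated spermatid markers had a mean level of 7.502 to 8.14 among controls and 7.26 to 8.56 among MSUS samples, and the 5 spermatocyte markers of 4.66 to 5.06 and 3.89 to 5.26. The 5 Leydig markers ranged from 1.35 to 3.18 and from 2.40 to 3.41. The mean list levels in controls and MSUS samples were 3.46 and 3.48 for round spermatids, -0.40 and -0.37 for spermatogonia (2 of 5 markers passed the filter), 3.20 and 3.31 for endothelial cells and 1.27 and 1.87 for peritubular myoid cells (3 of 4 passed). The smallest adjusted p among the 9 lists was 0.740 (exact permutation tests, Benjamini-Hochberg). In such bulk samples, fewer cells of a type and less RNA per cell cannot be told apart.

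Levels of different genes were compared only per length of transcript. Values below are CPM per kb of the longest coding transcript, followed by the value per kb of the median coding transcript, because several genes have many short annotated isoforms that raise the latter. Scd2, a stearoyl-CoA desaturase, headed the order by the longest transcript with 259.6 ± 11.56 CPM per kb (SD, n = 6 controls) and 259.6 by the median one. Its paralog Scd1 was near the bottom with 0.158 and 0.296. Next came Fads2, the delta-6 desaturase of polyunsaturated fatty acid synthesis, with 142 ± 11.4 and 255, and Lrp8, an ApoE and reelin receptor, with 121 ± 9.999 and 239.8. These 3 genes held ranks 1 to 3 by the longest transcript and by the union of exons, and ranks 3, 4 and 6 by the median transcript.

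High values were also found for Elovl5, an elongase of polyunsaturated fatty acids, with 64.7 and 282. Soat1, which esterifies cholesterol for storage, had 49.97 and 223. Fads1, the delta-5 desaturase, had 44.4 and 76.0, and Lrp1, a large endocytic receptor, had 41.2 and 246. Fatty acid genes had a median of 41.5 CPM per kb by the longest transcript, against 7.61 for the median coding gene tested.

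The sterol synthesis genes were lower, with a median of 5.33 over 18 genes by the longest transcript, and 5 of the 18 exceeded the median coding gene (7 of 18 by the median transcript). Ebp, the sterol isomerase, was the highest of them at 46.5 and 71.5. Hmgcs1, which makes HMG-CoA, followed at 33.7 and 36.0, and Msmo1, the sterol C4-methyl oxidase, stood at 21.96 and 69.6. Sqle, the squalene epoxidase, reached 2.69 and 2.75, Mvd, the mevalonate diphosphate decarboxylase, 2.73 by both, and Sc5d, a late desaturase of the sterol ring, 1.68 and 4.81. Along the order by the median transcript, 7 of 38 neighbouring pairs had ranges over the 6 controls that did not overlap, and the ranges of the other pairs overlapped.

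Among the sensors, Insig2 stood at 20.6 and 99.99 CPM per kb and its paralog Insig1 at 2.66 by both lengths. Scap had 13.9 and 98.8, Srebf1 9.31 and 9.85, and Srebf2 3.25 and 6.90. The cholesterol exporter Abca1 reached 18.1 by both lengths, against 0.144 and 0.733 for Abcg1, another exporter. Apoe, the lipoprotein ligand, was at 4.29 and 7.39, below the median coding gene.

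**Figure D1:**
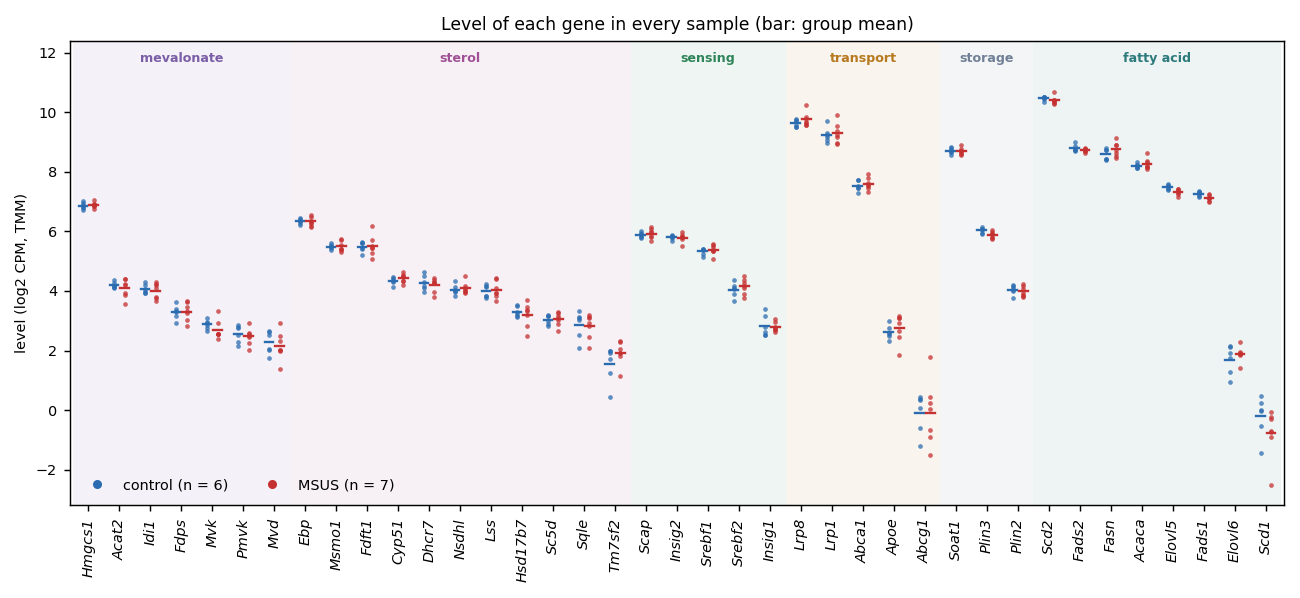
Level of the 39 genes in log2 CPM (vertical axis) by gene and role (horizontal axis), with 1 point per sample and a bar at the mean of the 6 controls (blue) and 7 MSUS samples (red). The points of both groups overlap for every gene, and the spread widens for low genes such as Abcg1, Scd1 and Tm7sf2.

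**Figure D2:**
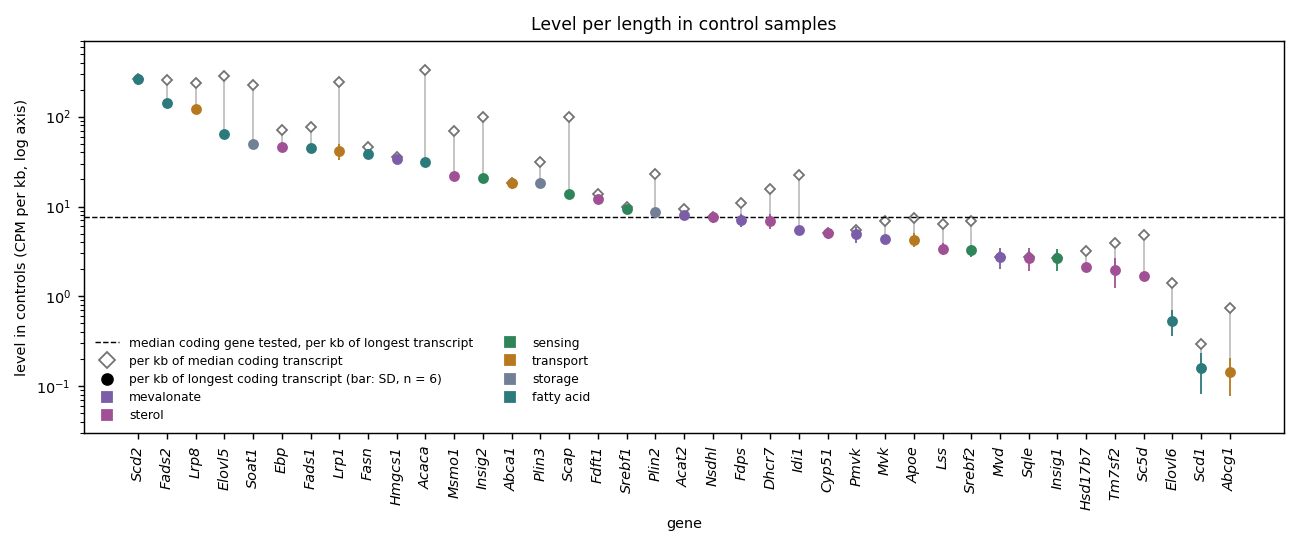
Mean level in the 6 controls in CPM per kb on a log axis, by gene. Filled circles use the longest coding transcript (bar: SD, colour: role), open diamonds the median coding transcript, and the dashed line at 7.61 is the median coding gene tested by the longest transcript; Scd2 is high by both lengths, whereas Acaca moves from 31.02 to 332.

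Some counts are uncertain because annotated sequence is shared. The share of 31-base stretches also found in another gene was 43.75% for Acat2 (with Acat3), 33.5% for Acaca (with Gm5182), 31.9% for Fdft1 (with Ctsb, which overlaps it on the opposite strand), 27.9% for Fdps and 27.1% for Idi1. It exceeded 5% for 12 of the 39 genes and was 0 for 10, among them Elovl5, Fads1, Fasn and Ebp. The library kit keeps the strand, but whether the counting used it is not given in the sources used here.

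Between MSUS and control males the set as a whole lay close to the background. Of 38 genes tested, 19 were higher and 19 lower after MSUS. Their median log2 fold change was 0.0011, against -0.0018 over all genes. The study's threshold of an unadjusted p under 0.05 was passed by 3 genes (7.89%), Elovl5, Fads1 and Plin3, against 5.42% of all 14421 genes tested. All 3 were lower in MSUS samples, a direction in which 2.4% of all genes passed, and 0 of the 38 passed in the higher direction, against 3.02% of all genes. When p-values were adjusted over all genes (Benjamini-Hochberg), limma called 0 of the 38 and 0% of all genes; the smallest adjusted p was 0.878. edgeR's quasi-likelihood test and DESeq2 each gave 3 of the 38 at an unadjusted p under 0.05 and 0 after adjustment. Of all genes, 793 and 835 passed the unadjusted threshold in these fits.

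Elovl5 (chr9:77917364-77984519, plus strand), which lengthens polyunsaturated fatty acids, had the smallest p of the set. Its lowest, median and highest levels were 7.40, 7.49 and 7.58 log2 CPM in controls and 7.16, 7.35 and 7.43 in MSUS samples. All 7 MSUS samples lay below the control mean and 5 lay below every control, while the groups overlapped at the top of the MSUS range. The log2 fold change was -0.17 (SE 0.06), a level 10.9% lower in MSUS samples (exact permutation test, two-sided p = 0.00466, limma adjusted p = 0.878). Elovl5, Fads1 and Plin3 were picked by their limma p, so the permutation p of each, on the same values, is no separate support. Leaving out any 1 of the 13 samples kept the unadjusted limma p of Elovl5 under 0.05.

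Fads1 (chr19:10182888-10196877, plus strand), the delta-5 desaturase that acts on the same fatty acid chains, ran from 7.15 through a median of 7.28 to 7.37 in controls. In MSUS samples the lowest, median and highest values were 7.003, 7.13 and 7.25. Again all 7 MSUS samples were below the control mean and 5 were below every control. The log2 fold change was -0.14 (SE 0.06, exact permutation test, two-sided p = 0.0198, limma adjusted p = 0.878). The call was lost without control 9, control 24, MSUS 6 or MSUS 11. It was also lost with the elongated spermatid level as a covariate, where the value was -0.11. Its neighbour in the pathway, Fads2, was below the control mean in 7 of 7 MSUS samples with a log2 fold change of -0.07 (SE 0.05), and did not pass the threshold. Of these 7, 3 were below every control. The Fads2 medians were 8.75 in controls and 8.74 in MSUS samples, and control 24 had the highest level, 8.996.

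Plin3, a coat protein of lipid droplets (chr17:56277476-56292873, minus strand), had 5.92, 6.07 and 6.15 log2 CPM as lowest, median and highest control and 5.75, 5.91 and 6.06 in MSUS samples. Of the 7 MSUS samples, 6 were below the control mean and 5 below every control, and MSUS 23 lay above it. The log2 fold change was -0.16 (SE 0.07, exact permutation test, two-sided p = 0.0239, limma adjusted p = 0.878). The call did not hold in 7 of the 13 fits that left out a sample, namely those without control 9, 12, 14 or 24 or MSUS 5, 11 or 26. Plin2, the other droplet coat gene, differed by -0.03 (SE 0.11), and Soat1 by -0.02 (SE 0.06).

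Within groups, all 3 genes moved with the Sertoli marker list, which was 8.84 in controls and 8.80 in MSUS samples. Pearson r over the 13 samples, centred within groups, was 0.67 for Elovl5, 0.65 for Plin3 and 0.47 for Fads1. Plin3 also had r of -0.70 with the mean level of 1286 genes with long transcripts (at least 6943 bp), a measure that can move with RNA integrity, and Fads1 had r of -0.62 with the elongated spermatid list. The part of these measures in the differences was not tested, apart from the covariate fit above.

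The 3 genes with the smallest p in the higher direction did not pass the threshold. Fasn, the fatty acid synthase, ran from 8.41 through 8.58 to 8.79 among controls. The MSUS samples ran from 8.47 through 8.72 to 9.15, and 3 of them lay above every control. Its log2 fold change was 0.17 (SE 0.10). Tm7sf2, a sterol C14 reductase with 12 to 55 counts, ran from 0.42 through 1.81 to 1.98 and from 1.16 through 1.92 to 2.33, with a log2 fold change of 0.36 (SE 0.28).

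Lrp8 ran from 9.51 through 9.64 to 9.78 among controls and from 9.57 through 9.67 to 10.25 after MSUS, where MSUS 26 stood apart. Its log2 fold change was 0.12 (SE 0.09). With the elongated spermatid level as a covariate, Lrp8 at 0.21 and Fasn at 0.24 passed an unadjusted p under 0.05. In that fit 4 members and 1204 of all genes passed, against 3 and 781 in the main fit. Fasn also passed without MSUS 13, at 0.22, and Scd2 without MSUS 26, at -0.10.

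None of the 18 sterol synthesis genes passed the threshold, with 9 higher and 9 lower and log2 fold changes from -0.17 for Mvk, the mevalonate kinase, to 0.36 for Tm7sf2. The narrowest 95% intervals were -0.10 to 0.16 around 0.03 for Hmgcs1, -0.16 to 0.14 around -0.01 for Ebp and -0.16 to 0.18 around 0.01 for Msmo1. Fdft1 had the same median count as Msmo1, 505, and a wider interval of -0.27 to 0.30 around 0.02. Its within-group SD was 0.29 log2 units, against 0.13 for Msmo1. For Sqle, with 42 to 127 counts, the interval ran from -0.57 to 0.36 around -0.10. Differences smaller than these intervals were not detectable at this depth and number of animals.

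Of the mevalonate genes, 2 were higher and 5 lower, with Acat2, the cytosolic thiolase, at -0.12 (SE 0.13), Idi1, the isopentenyl isomerase, at -0.09 (SE 0.12) and Fdps, the farnesyl diphosphate synthase, at 0.02 (SE 0.16). Pmvk and Mvd, the next kinase and the decarboxylase, were at -0.07 (SE 0.18) and -0.08 (SE 0.24). Of the sterol genes, 7 were higher and 4 lower. Fdft1, the squalene synthase, was at 0.02 (SE 0.14), Lss, the lanosterol synthase, at 0.05 (SE 0.14) and Cyp51, the lanosterol demethylase, at 0.09 (SE 0.09). Nsdhl and Hsd17b7, which complete the removal of the C4 methyl groups, were at 0.06 (SE 0.11) and -0.10 (SE 0.17), and the last enzymes Sc5d and Dhcr7 at 0.03 (SE 0.14) and -0.07 (SE 0.13).

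The 5 sensing genes ranged from -0.03 for Insig1 to 0.10 for Srebf2, with Srebf1 at 0.07, Scap at 0.04 and Insig2 at -0.02, and none passed. Of the transport genes, Apoe was at 0.13 (SE 0.21), Lrp1 at 0.07 (SE 0.14), Abca1 at 0.06 (SE 0.09) and Abcg1 at -0.04 (SE 0.54). The remaining fatty acid genes were Acaca, the acetyl-CoA carboxylase, at 0.07 (SE 0.08), Scd2 at -0.06 (SE 0.06) and Elovl6 at 0.17 (SE 0.23). Scd1, which did not enter the limma test, had a median of 11.5 counts in controls and 5 in MSUS samples, not scaled for library size. Its levels overlapped, from -1.44 to 0.48 log2 CPM in controls and -2.52 to -0.07 in MSUS samples (exact permutation test, two-sided p = 0.220).

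**Figure D3:**
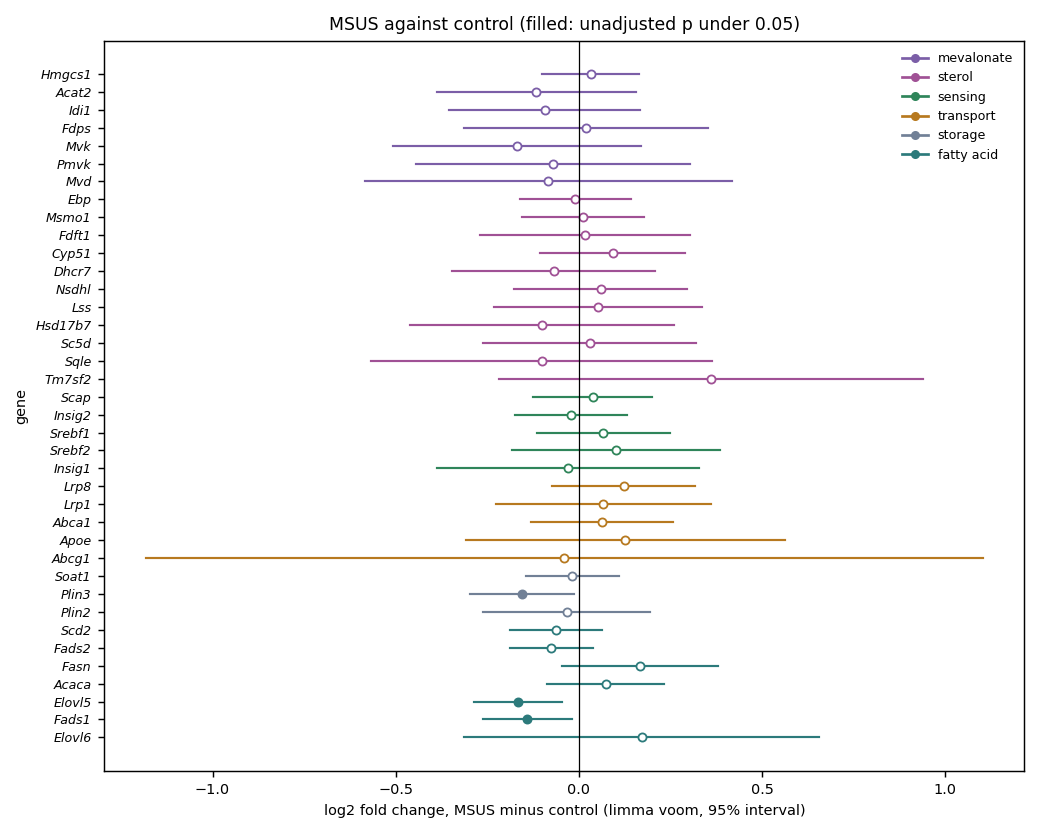
Log2 fold change of MSUS minus control with its 95% interval from limma voom (horizontal axis) for the 38 genes tested, coloured by role. Filled points mark the 3 genes with an unadjusted p under 0.05, Elovl5 at -0.17, Fads1 at -0.14 and Plin3 at -0.16; the interval of every other gene spans 0.

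In a wider list of 84 lipid genes, 69 were tested and 3 had an unadjusted p under 0.05 (4.35%), against 5.42% of all genes. Higher in MSUS samples were Pdss2, a subunit of the enzyme that makes the coenzyme Q side chain, at 0.25 (SE 0.09), and Plin5, a droplet coat protein, at 0.36 (SE 0.16). Among those that did not pass were Lpl, the lipoprotein lipase, at 0.31 (SE 0.16), Slc27a4, a fatty acid transporter, at -0.29 (SE 0.16) and Mgll, the monoglyceride lipase, at -0.44 (SE 0.24). The list had 28 positive and 41 negative values and a median of -0.03, and the smallest limma adjusted p of the 69 was 0.878.

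The sterol synthesis genes had pairwise correlations centred near 0 from mouse to mouse. Over their 153 pairs, the median Pearson r was 0.0089 (13 samples, log2 CPM centred within groups), against -0.0026 over all pairs of tested genes. The quartiles of the pairs were -0.26 and 0.29, against -0.24 and 0.24. The 12 synthesis genes with a median of at least 100 counts gave 0.02. Leaving out 1 sample at a time gave -0.04 to 0.04. Only 4 of the 153 pairs (2.61%) exceeded 0.7, against 1.45% of all pairs, and these values carry no test, since the pairs share libraries and genes.

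A small group at the later steps varied together. Msmo1, Ebp and Cyp51 had pairwise r of 0.77 (Msmo1 and Ebp), 0.75 (Cyp51 and Ebp) and 0.72 (Cyp51 and Msmo1), and between 0.64 and 0.69 without MSUS 23, the sample that lowered each most. In controls alone the same pairs had r of 0.50, 0.46 and 0.83, and in MSUS samples alone 0.84, 0.89 and 0.71; the pairs with Ebp had the lower r in controls, a difference that was not tested. Ebp had a lowest, median and highest level of 6.20, 6.34 and 6.45 in controls and 6.16, 6.29 and 6.57 in MSUS samples, and it was highest in MSUS 23, as was Cyp51. Beside this, r with the Sertoli list was 0.68 for Ebp, 0.68 for Msmo1 and 0.63 for Cyp51, and r with the genes of long transcripts was -0.73, -0.39 and -0.70. The part of these measures was not tested. Hmgcs1 and Mvk, the other correlated pair at the entry of the pathway, had r of 0.76.

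Some other synthesis genes ran against each other, though only 1 of the 153 pairs (0.654%) was under -0.7, against 1.09% of all gene pairs. Acat2 and Nsdhl had r of -0.72, which was -0.45 without MSUS 1. Hmgcs1 and Sqle, both textbook SREBP targets, had r of -0.66. Hmgcs1 moved with the Sertoli list (r of 0.68) and against the spermatocyte list (r of -0.66, or -0.44 without MSUS 1), whereas Sqle moved against the Sertoli list (-0.64) and with the spermatocyte list (0.67). Fdft1 moved with the spermatocyte list at 0.84 (0.77 without MSUS 11) and with the round spermatid list at 0.78 (0.41 without MSUS 11). Its levels ran from 5.19 through 5.53 to 5.65 among controls and from 5.08 through 5.43 to 6.18 after MSUS. Fdft1 was highest in MSUS 11, with the highest spermatocyte level of 5.26, and lowest in MSUS 1, with the lowest of 3.89. For both lists, the r of Fdft1 was the highest among the 38 genes. With the peritubular myoid list, r ran from -0.58 for Mvk to 0.72 for Dhcr7. The part of these lists was not tested.

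Most of the high correlations lay among the lipid uptake, storage, sensing and fatty acid genes. Over all 38 genes, 34 of 703 pairs (4.84%) exceeded 0.7, against 1.45% of all gene pairs. In 23 of the 34 neither gene belonged to sterol synthesis. The pairs of all genes, here and below, were not matched for read depth, and Soat1, Lrp8 and Fasn had median counts of 4747, 8842 and 4446. Acaca and Fasn, the consecutive enzymes that build palmitate, had the highest r, 0.91, with 0.80 in controls and 0.97 in MSUS samples. Lrp8 had r of 0.89 with Acaca, 0.89 with Fasn and 0.89 with Soat1, and Soat1 had 0.85 with Fads1. Scap reached 0.83 with Fasn, and Srebf1 reached 0.80 with Fads1. Soat1 took part in 9 of the 34 pairs, and Lrp8 and Scap in 6 each. At the other end, 7 pairs (0.996%, against 1.09% of all gene pairs) were under -0.7, with the lowest r of -0.82 for Elovl6 and Fads2, or -0.66 without control 24, where Elovl6 had 18 to 62 counts per sample.

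These values leaned on MSUS 26, which had the highest level of the 13 samples for 10 of the 38 genes (26.3%, against 15% of all tested genes), Abca1, Acaca, Fasn, Lrp1, Lrp8, Scap, Scd2, Soat1, Srebf1 and Srebf2. Without it, 21 pairs (2.99%) exceeded 0.7, against 1.62% of all gene pairs. The r of Acaca with Fasn was then 0.88, that of Lrp8 with Fasn 0.86, that of Lrp8 with Soat1 0.81, that of Lrp8 with Acaca 0.70 and that of Lrp8 with Scd2 0.17. Of the 34 pairs, 13 stayed above 0.7 whichever sample was left out. At the other end, MSUS 11 had the lowest level for 10 of the 38 genes (26.3%, against 9.63% of all tested genes). Without MSUS 11, 33 pairs (4.69%) exceeded 0.7, against 1.55% of all gene pairs.

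MSUS 26 also had the lowest elongated spermatid level, 7.26. Lrp8 had r of -0.83 with that list, or -0.60 without MSUS 26, and Fasn had -0.68, or -0.45. Acaca had -0.62, or -0.15, and Soat1 had -0.65, or -0.33. With the elongated spermatid level regressed out, 20 pairs (2.84%) exceeded 0.7, against 1.66% of all gene pairs, and Acaca with Fasn stood at 0.85, Lrp8 with Fasn at 0.79 and Lrp8 with Soat1 at 0.82. The genes of long transcripts also moved with this group, with r of 0.84 for Lrp1, 0.79 for Acaca and 0.76 for Lrp8. Without MSUS 26 these were 0.72, 0.60 and 0.52. Fasn had r of 0.63 and Soat1 of 0.61 with the long transcripts. That measure spanned 4.77 to 5.02 among controls and 4.85 to 5.15 after MSUS, and its part in these correlations was not tested.

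**Figure D4:**
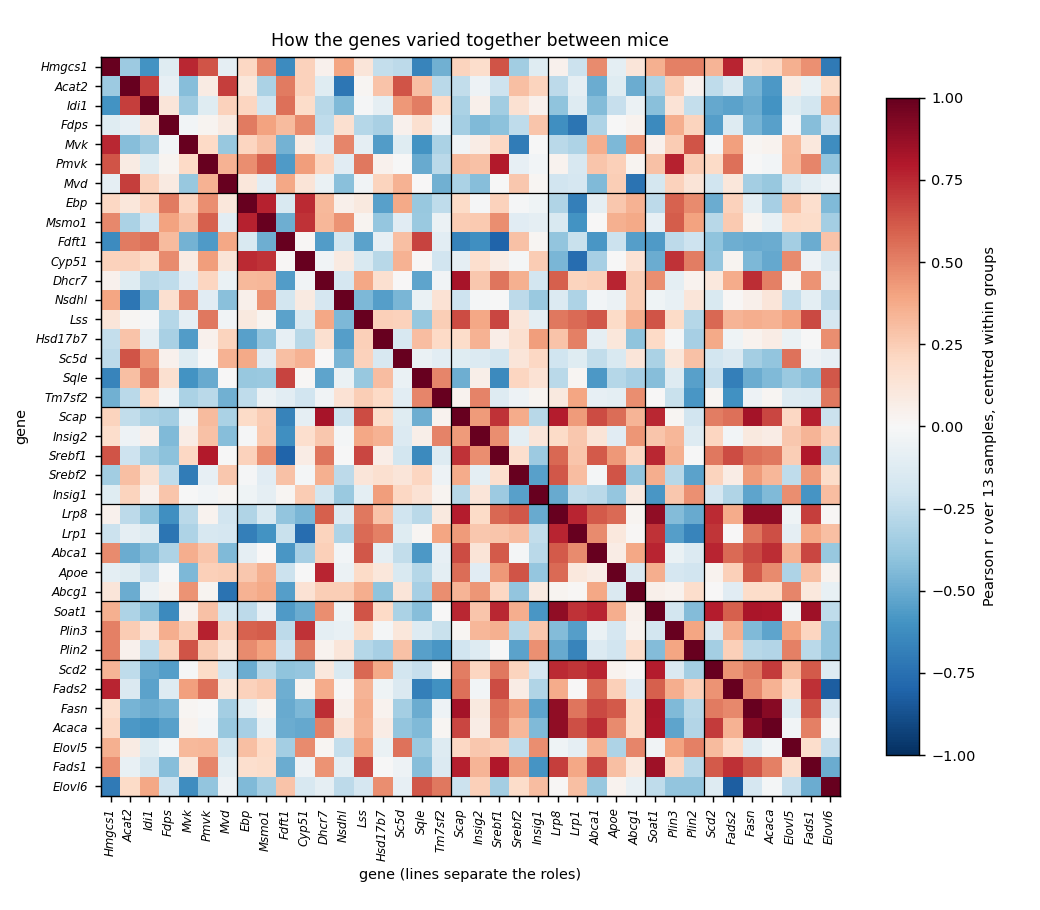
Pearson r (colour) between the levels of each pair of the 38 tested genes over 13 samples, centred within groups, with genes on both axes ordered by role. The synthesis block at the upper left is mixed in sign (median 0.0089), whereas Soat1, Lrp8, Scap, Fasn and Acaca form a positive group with r up to 0.91.

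**Figure D5:**
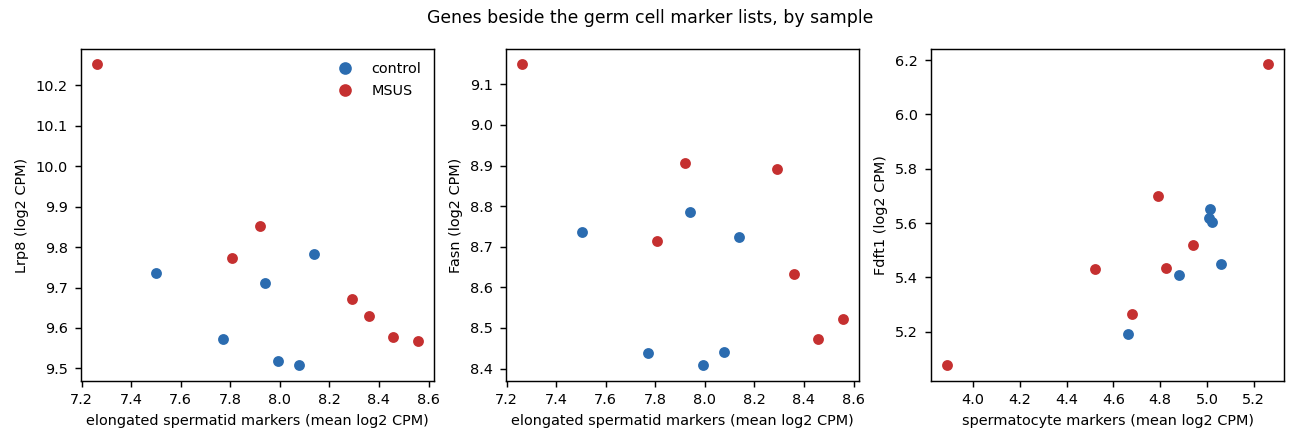
Level of Lrp8, Fasn and Fdft1 (vertical axes, log2 CPM) against the mean level of germ cell markers (horizontal axes, log2 CPM), 1 point per sample, 6 controls in blue and 7 MSUS in red. Centred within groups, r was -0.83 for Lrp8 and -0.68 for Fasn with the elongated spermatid list and 0.84 for Fdft1 with the spermatocyte list, and MSUS 26 is the point at the upper left of the first 2 panels.

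Regulators and targets, and paralogs, were compared as 8 pairs of genes over the 13 samples, without centring. Fads1 and Fads2, which lie near each other on chromosome 19, had Pearson r of 0.78 (permutation p = 0.0006, adjusted over the 8 pairs 0.0048) and Spearman rho of 0.65 (permutation p = 0.0191, adjusted 0.082). The r was 0.59 without the 2 samples farthest from the median Fads1 level, MSUS 11 and control 24, and 0.75 within controls and 0.81 within MSUS samples. Sqle and Hmgcs1 had r of -0.66 (permutation p = 0.0149, adjusted 0.0596) and rho of -0.64 (permutation p = 0.0205, adjusted 0.082), and -0.39 without MSUS 1 and control 24, with -0.48 in controls and -0.84 in MSUS samples.

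Srebf2, the main regulator of sterol synthesis, had r of -0.30 with Hmgcs1 (permutation p = 0.320, adjusted 0.371; -0.21 in controls, -0.47 in MSUS samples) and -0.55 with Insig1 (permutation p = 0.0531, adjusted 0.106; -0.76 and -0.32). Srebf1 and Fasn had r of 0.58 (permutation p = 0.0388, adjusted 0.103) and rho of 0.40 (permutation p = 0.176, adjusted 0.352), with r of 0.26 in controls and 0.67 in MSUS samples. The r of Abca1 with Abcg1 was 0.38, that of Scd1 with Scd2 0.29 and that of Insig1 with Hmgcs1 -0.14, with adjusted permutation p of 0.310, 0.371 and 0.658. Within groups the first of these had opposite signs, -0.28 in controls and 0.68 in MSUS samples, and was 0.17 without MSUS 1 and MSUS 26. Scd1 with Scd2 also changed sign, from -0.32 in controls to 0.39 in MSUS samples, whereas Insig1 with Hmgcs1 was -0.17 and -0.04. These differences between groups were not tested. Of the 8 pairs, Fads1 with Fads2 alone passed an adjusted p under 0.05 by Pearson r, and 0 passed by Spearman rho.

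The genes whose level was most like the mean of the 18 synthesis genes, among all tested genes outside the set, were Cbwd1 (r of 0.87 over 13 samples, centred within groups), Exosc3 (0.86), X1700037H04Rik (0.85), Ddx49 (0.85), Islr2 (0.85), Bc1 (0.84), Gsdmcl2 (0.84), Osgep (0.84), Dph3 (0.83) and Mesd (0.83). Single synthesis genes had r from -0.64 for Mvk to 0.49 for Idi1 with the mean of the other 17 genes. The mean of the 18 genes, centred within groups, was highest in MSUS 23 (0.15) and lowest in MSUS 1 (-0.10). How far the r values depend on these samples was not tested. The genes outside the set were picked as the highest r of all those ranked. Over 13 samples, the top of so long a ranking can reach such values without a link, so the names do not show co-expression.

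For some genes the spread between mice of a group far exceeded counting error. Lrp1 had a within-group SD of 0.31 log2 units, which was 17.6 times its counting error. The ratio was 13.1 for Lrp8 (SD 0.19), 10.03 for Fasn (SD 0.21) and 9.46 for Scd2 (SD 0.11). It was 1.33 for Sc5d (SD 0.20) and 1.45 for Cyp51 (SD 0.14), genes for which counting error makes up much of the spread. Counting error falls with depth, so Scd2 had a high ratio although its SD was below those of Sc5d and Cyp51.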

How the data were processed

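RNA of FACS-enriched adult Sertoli cells from 6 control and 7 MSUS males was analysed. Libraries were made from 5 ng RNA with a stranded total RNA kit. According to the submitters' processing notes and the study's methods, the authors trimmed reads with Trim Galore 0.6.5 and quantified them with Salmon 1.1.0 against GENCODE vM23, and the deposited values are estimated counts per gene without normalization. Estimated counts were rounded to whole numbers. Of 54281 features, 27170 carried no gene name and held 20.7% to 26.7% of the counts, and neither library sizes nor tests used them. Columns without a matching sample numbered 0. No 2 samples of a group agreed within counting error.

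Genes were filtered with filterByExpr, scaled by TMM (edgeR 4.0.16) and tested with voom and limma 3.58.1 (R 4.3.3) at the study's unadjusted p of 0.05 and with Benjamini-Hochberg adjustment over 14421 genes; levels are in log2 CPM (prior count 2). edgeR's quasi-likelihood test, DESeq2 1.42.0, other scalings and filters, sample weights, the spermatid level as a covariate and leaving out each sample were alternatives. Scripts were tested on simulated data. Lengths and gene coordinates came from GENCODE vM21 (GRCm38), since vM23 was not used here, and promoters from RefSeq (GRCm38.p6). Exact permutation tests used all 1716 splits (smallest p 0.000583); correlations used 100000 permutations. Named were all genes of the set, other lipid genes with p under 0.05 and, for either direction, those with the 3 smallest p, and the 10 genes most like the synthesis mean. Of the other lipid genes, 1 is not reported here. The members and lists were chosen with earlier results of these data known. Values per kb of the longest transcript, the regressed and single-sample correlations among pairs and the long-transcript measure were added after seeing the data.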

Additional observations from a re-analysis of the deposited data

Results flagged for a closer look

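In each group of 6 or 7 samples, the highest or lowest value of each of the 39 genes was compared with the range of its group (Dixon's criterion at 95%). Of 78 groups of values, 5 held a sample that stood apart, where chance flags about 1 in 20 groups, or 3.9 here. MSUS 26 was high for Lrp8, at 10.25 log2 CPM with the rest of its group at 9.57 to 9.85, and for Scd2, at 10.69 against 10.28 to 10.42. Control 22 was low for Scd2, at 10.34 against 10.46 to 10.52 in the other controls. MSUS 6 was low for Tm7sf2, at 1.16 against 1.83 to 2.33, from 23 counts. MSUS 11 was low for Scd1, at -2.52 against -0.90 to -0.07, where it had 0 counts and Scd1 was below the filter on low counts.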

How the results depend on the processing

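Across 9 other settings and 13 fits that left out a sample, 0 members passed an adjusted p under 0.05 in every fit. The number with an unadjusted p under 0.05 was 3 in the main analysis. When a sample was left out, it ran from 1 (without control 9, control 24 or MSUS 11) to 4 (without MSUS 13). Of all genes, 550 passed without control 9, 643 without control 24, 1051 without MSUS 11 and 1023 without MSUS 13. The main analysis passed 781 of all genes, against 1182 when every gene with a count was kept. It was 1204 with the elongated spermatid covariate, and 534 to 1121 when a sample was left out. Other lipid genes numbered 3, and 2 to 5 when a sample was left out. They were 5 without control 14, MSUS 1 or MSUS 11, where 683, 775 and 1051 of all genes passed. Members lower in MSUS samples numbered 19, 21 with library size alone, and 16 to 22 when a sample was left out. The median log2 fold change of members stayed between -0.018 and 0.027. Of 835 values of single members under other settings, 819 stayed on the same side of the threshold, 12 lost it and 4 gained it. A change of sign with a call in either fit occurred in 0 values. In 53 of the 835 the sign differed from the main fit, with the threshold passed in neither fit. By Spearman rho, 0 of the 8 pairs passed, against 1 by Pearson r. The median level of the 39 genes was 13.7 CPM per kb by the median transcript, 8.11 by the longest and 5.75 by the union of exons, the last 2 using greater lengths. The spread between mice exceeded counting error for every member, by 1.33 times for Sc5d to 17.6 times for Lrp1. No paired analysis was possible because the replicate numbers are animal numbers and the groups share none.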
